A study of Mus musculus with 6 samples.

Results

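The genes described here were p53 (Trp53), its regulators and its direct targets other than Cdkn1a, taken from a list of 33 symbols and matched by gene name to the deposited expression table. Of these, 32 were found among the 22162 genes of the table, and Rps27l is named only. The genes were compared between senescent and non-senescent mouse skin fibroblasts (MSFs).

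MSFs came from the dorsal skin of a female FASST mouse on the FVB/N background. In these cells a Cre recombinase driven by the pro-alpha 2(I) collagen promoter is activated by tamoxifen (TAM), removes a stop cassette and so switches on the cell cycle inhibitor p27Kip1, with GFP, from the ROSA26 locus. Poly(A) RNA was sequenced from 3 samples that received TAM (10 µM, 48 h), the senescent group by label, and from 3 that received the ethanol vehicle (EtOH), the non-senescent group, all kept at 3% oxygen. Both groups carry the same alleles, and the samples hold no TAM-treated cells that lack the transgene, so TAM itself and the p27Kip1 transgene cannot be told apart. The labels do not say whether the 3 samples of a group were separate cultures, so p-values measure only the spread between these samples, which may be technical. Levels are given as normalized counts, that is, reads per gene after scaling by the authors.

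p53 is a transcription factor that is held low in unstressed cells by Mdm2, which marks it for degradation, and by Mdm4, which blocks its activity. After DNA damage and other stresses p53 is controlled mainly through the stability and activity of the protein, so its activity is usually read from the mRNA of its targets. The targets halt the cell cycle, repair DNA, trigger apoptosis or adjust metabolism, and Mdm2, Ccng1 and Ppm1d among them feed back to restrain p53. p53 binds DNA as a tetramer at a pair of short elements, each with a CNNG core, in which N is A or T, after purines and before pyrimidines.

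Sites of this kind near the start of a member are shown first. The members that hold them were Pmaip1, Fas, Ccng1, Zmat3 and Plk2, whose values are described below. TAM values lay above all EtOH values for these except Plk2, whose groups overlapped. TAM values also lay above all EtOH values for Phlda3, Aen, Tnfrsf10b and Tob1, which held no such site. Over all members tested this held for 8 (25.8%, against 9.19% of all genes tested). Whether the site goes with the levels was not tested. A site of 20 bases was taken as 2 abutting elements of 10 bases with no spacer, both cores intact and at most 2 mismatches among the 12 flanking positions. It was searched on both strands within 2000 bases of the 5′ end of each annotated gene in mm9. A site was found for 5 of the 32 members (15.6%) and for 516 of 22148 genes (2.33%). With 0 mismatches it was found for 1 member (3.1%) and for 15 genes (0.07%). Of the 5 members, 4 are shown in the direction of the gene, with 20 bases on each side of the site and the cores in capitals, and the fifth was Pmaip1.
Zmat3, chr3:32263233-32263292: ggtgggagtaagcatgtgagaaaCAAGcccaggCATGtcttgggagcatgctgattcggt
Ccng1, chr11:40568418-40568477: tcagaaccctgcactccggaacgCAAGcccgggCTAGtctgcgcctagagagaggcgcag
Fas, chr19:34366834-34366893: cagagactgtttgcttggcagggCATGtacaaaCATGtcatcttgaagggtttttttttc
Plk2, chr13:111184582-111184641: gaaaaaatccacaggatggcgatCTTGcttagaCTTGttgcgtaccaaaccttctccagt
The Zmat3 site (chr3:32263253-32263272, minus strand) lay in an intron 1337 bases downstream of the 5′ end and had 0 mismatches. The Ccng1 site (chr11:40568438-40568457, minus strand) lay in an intron 365 bases downstream and had 1 mismatch. The Fas site (chr19:34366854-34366873, plus strand) was also intronic, 1714 bases downstream, with 2 mismatches. The Plk2 site (chr13:111184602-111184621, plus strand) lay outside the gene, 640 bases upstream, with 2 mismatches. A match describes the letters only and shows no binding.

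Single 10-base elements without a mismatch were searched in RefSeq promoters of build GRCm38.p6, from 250 bases before to 50 after each gene's start. Such an element was present in 8.36% of 32851 promoters. Promoters were matched for 24 members, with 30 promoters in all, of which 11, in 10 members, held the element. Besides Ccng1, Mdm2 and Aen, these members were Bax, Ei24, Gadd45a, Polk, Ppm1d, Sesn1 and Trp53. The log2 fold change, TAM against EtOH, was above 0 for Ccng1, Mdm2, Aen, Bax, Ei24 and Polk. It was below 0 for Gadd45a (−0.825), Ppm1d (−0.25), Sesn1 (−0.11) and Trp53 (−0.01). Whether the element goes with the levels was not tested. The promoters of Ccng1, Mdm2 and Aen are shown as examples, in the direction of the gene and with the core in capitals.
Ccng1 promoter, chr11:40755237-40755536: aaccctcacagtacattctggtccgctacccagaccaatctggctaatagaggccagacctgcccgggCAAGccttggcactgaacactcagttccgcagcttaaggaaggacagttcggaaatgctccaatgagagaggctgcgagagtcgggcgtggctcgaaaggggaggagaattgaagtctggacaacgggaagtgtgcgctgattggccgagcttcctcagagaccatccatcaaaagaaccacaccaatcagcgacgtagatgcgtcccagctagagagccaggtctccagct
Mdm2 promoter, chr10:117710709-117711008: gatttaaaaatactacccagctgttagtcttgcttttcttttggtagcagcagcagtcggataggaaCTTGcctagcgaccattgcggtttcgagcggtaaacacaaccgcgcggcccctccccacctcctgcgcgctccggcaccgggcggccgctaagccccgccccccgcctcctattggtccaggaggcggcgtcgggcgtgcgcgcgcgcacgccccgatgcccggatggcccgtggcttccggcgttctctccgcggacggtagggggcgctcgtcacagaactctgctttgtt
Aen promoter, chr7:78895677-78895976: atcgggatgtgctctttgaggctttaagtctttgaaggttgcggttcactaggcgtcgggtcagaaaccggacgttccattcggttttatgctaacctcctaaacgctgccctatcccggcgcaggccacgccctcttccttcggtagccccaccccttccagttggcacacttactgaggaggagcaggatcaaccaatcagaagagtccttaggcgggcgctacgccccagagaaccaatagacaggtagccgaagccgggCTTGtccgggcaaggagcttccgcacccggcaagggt
The Ccng1 and Mdm2 promoters are on the minus strand and the Aen promoter is on the plus strand.

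Library sums ranged from 14952367 to 17314953 normalized counts. Replicate 2 stood apart in both groups, with a weight estimated from the residuals of the fit of 0.292 in EtOH and 0.288 in TAM, against 0.931 to 4.06 in the other 4 libraries. All 10 fibroblast markers were detected, and their summed level was 1541742 to 1683302 in EtOH and lower, 693948 to 1139599, in TAM. They did not move as 1 set, since TAM values lay below all EtOH values for 5 of them (Col1a1, Col1a2, Col3a1, Dcn and Lum), above for 1 (Thy1) and overlapped for 4. Beside these the summed levels of other cell types were low, with 83.0 to 101 in EtOH and 81.6 to 232 in TAM for 12 keratinocyte markers, 188 to 497 and 289 to 503 for 10 macrophage and leukocyte markers, 92.5 to 241 and 24.6 to 45.2 for 8 endothelial markers, and 134 to 255 and 141 to 190 for 6 melanocyte markers. Most of the endothelial sum in EtOH was Kdr, at 205, 68.7 and 116, against 4.84, 7.53 and 14.0 in TAM. Of the 8 endothelial markers, 6 were under 1 c.p.m. (16.2 normalized counts) in all libraries. Among these 6 was Vwf, whose TAM values lay above all EtOH values. The part of these marker shifts in the results was not tested. In bulk RNA, fewer cells of a type and less RNA per cell cannot be told apart.

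The list was mixed in direction, with a set of arrest and death targets at higher levels in each TAM library than in any EtOH library, and with Trp53 itself differing by less than the spread between libraries. Of the 32 members, 31 were tested, and each of these was above 1 c.p.m. (16.2 normalized counts) in all 6 libraries, while Perp was under the filter. At an adjusted p under 0.05 in limma's moderated test, 0 of the 31 members were called in either direction, where 0.168% of the 11877 genes tested were called higher and 0.0758% lower. Before adjustment, 8 members had p under 0.05 and were higher in TAM (25.8%, against 6.67% of all genes tested). Another 2 did so and were lower (6.45%, against 6.70%). Over the alternatives the first count ranged from 5, without EtOH replicate 3, to 14. The count of 14 came with the replicate block and without replicate 2 (against 11.8% of 11520 genes). The second count ranged from 0, as without TAM replicate 2, to 2. With a single library left out, the share of all genes was not counted.

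All 3 TAM values lay above all 3 EtOH values for 8 members (25.8%, against 9.19% of all genes tested) and below them for 3 (9.68%, against 11.4%). With library sums set equal, which moved the median of all genes tested from −0.03 to 0.08 on the log2 scale, these counts were 10 (32.3%, against 13.9% of all genes tested) and 0 (against 6.36%). The log2 fold change was above 0 for 21 members (67.7%, against 46.2% of all genes tested). It was 1 or more for 6 members, where 5.32% of all genes tested were, and −1 or less for 1 member, where 3.44% were. Its median was 0.29 over the members and −0.03 over all genes tested. By role, the median was −0.01 for p53 and its regulators, 0.54 for growth arrest targets, 0.60 for cell death targets, 0.14 for DNA repair targets and −0.04 for metabolic targets. Without EtOH replicate 3, the lowest EtOH library for 16 of the 31 members and for 27.7% of all genes tested, the median over the members was 0.13.

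**Figure D1:**
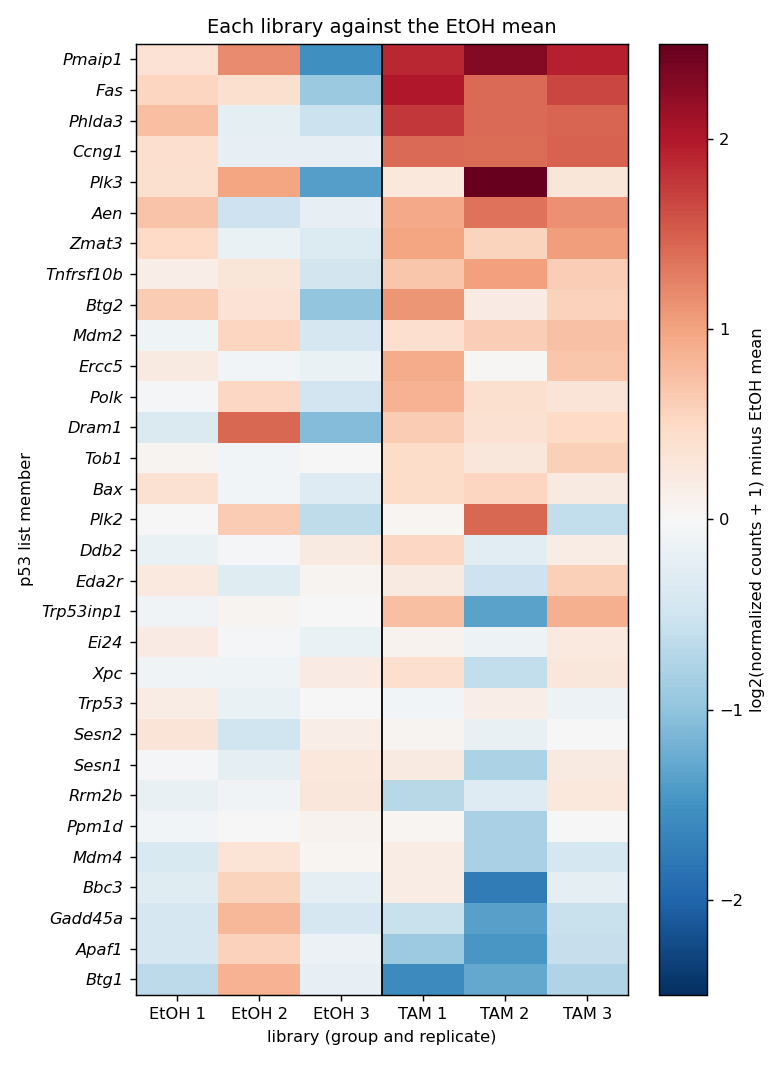
Each row is a member, for the 31 tested, ordered by log2 fold change, and each column is a library. Colour gives log2(normalized counts + 1) minus the EtOH mean, with red for higher and blue for lower values. Pmaip1, Fas, Phlda3 and Ccng1 were above the EtOH mean in all 3 TAM libraries, Btg1 and Apaf1 were below it, and TAM replicate 2 was the lowest TAM library for 20 members.

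With the replicate number as a block, 1 member, Ccng1, was called higher (3.23%, against 1.00% of all genes tested) and 0 were called lower (against 0.615%). In that model 10 members were higher at an unadjusted p under 0.05 (32.3%, against 8.64%) and 2 were lower (6.45%, against 8.32%). The TAM value exceeded the EtOH value of the same number in 3 of 3 pairs for 12 members (38.7%, against 18.3% of all genes tested) and was below it in 3 of 3 pairs for 4 members (12.9%, against 23.6%). The pairs differed from each other. The median difference over the members was 0.47 in pair 1, −0.09 in pair 2 and 0.54 in pair 3 on the log2 scale, while over all genes tested it was −0.05, 0.0 and −0.05. TAM replicate 2 was the lowest TAM library for 64.5% of the members and for 40.2% of all genes tested.

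More members were called in 2 further models. With libraries weighted by their residuals, an alternative chosen after seeing the data, 6 members were called higher (19.4%, against 3.25% of all genes tested), namely Mdm2, Ccng1, Fas, Phlda3, Pmaip1 and Tob1, and 0 were called lower (against 3.00%). The other model changed 2 choices together, the block and no replicate 2 of either group, also chosen after seeing the data. It called 8 members higher (25.8%, against 4.10% of 11520 genes), namely Ccng1, Dram1, Ercc5, Fas, Phlda3, Pmaip1, Polk and Trp53inp1. It called 0 lower (against 3.32%). With a block at 2 against 2, little of a gene's own spread is left to estimate its error. The calls of that model rest largely on the spread pooled over genes. Without replicate 2 and without the block, limma called 0 members, where 0.0434% of 11520 genes were higher and 0.0347% lower, so leaving out that replicate alone added no call. At 2 against 2, TAM lay above EtOH without overlap for 15 members (48.4%, against 22.1% of all genes) and below for 5 (16.1%, against 31.9%).

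For p53 and its regulators the differences were small or uncertain. Trp53 (ENSMUSG00000059552, chr11:69393861-69405375) encodes p53. Its normalized counts were 1597, 1248 and 1385 in EtOH replicates 1, 2 and 3 and 1333, 1578 and 1280 in the TAM replicates. The groups overlapped, and the highest library was 1.28 times the lowest in EtOH and 1.23 times in TAM. On the log2 scale TAM differed from EtOH by −0.01 ± 0.18 (standard error, limma, adjusted p = 0.984), with a 95% interval of −0.42 to 0.40, or 0.75-fold to 1.32-fold. Its sign changed with the scaling, to 0.10 with library sums set equal.

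Mdm2 (ENSMUSG00000020184, chr10:117125944-117147814), the ubiquitin ligase for p53 and itself a target, had 1563, 2440 and 1259 normalized counts in EtOH and 2248, 2590 and 2789 in TAM. Only EtOH replicate 2 reached into the range of the TAM values. Its log2 fold change of 0.59 had a standard error of 0.26 and a limma adjusted p of 0.396, with an interval of −0.03 to 1.20. Without EtOH replicate 3 it was 0.37, and with library weights it was 0.88 (adjusted p = 0.0349), where adjusted p over all alternatives ranged from 0.0349 to 0.767.

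Mdm4, which binds p53 and inhibits it, had 647, 1069 and 881 normalized counts in EtOH and 960, 483 and 624 in TAM. The groups overlapped, and pair 1 went the other way from pairs 2 and 3 (0.57, −1.15 and −0.50 on the log2 scale). Ppm1d, the Wip1 phosphatase that switches off damage signals, had 307, 316 and 338 normalized counts in EtOH and 331, 182 and 321 in TAM. Apart from TAM replicate 2, all of its values lay between 307 and 338.

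Trp53inp1, a stress-induced protein that promotes p53 activity, had 2417, 2685 and 2584 normalized counts in EtOH and 4311, 1016 and 4767 in TAM. TAM replicates 1 and 3 were above every EtOH library and TAM replicate 2 was below every one of them. Over all libraries its log2 fold change of 0.11 had a standard error of 0.56 and a limma adjusted p of 0.960, and it was 0.86 without replicate 2 of either group.

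Among the 8 targets of growth arrest, Ccng1, Zmat3 and Tob1 had all TAM values above all EtOH values (37.5%, against 9.19% of genes tested). For Btg1 and Gadd45a the TAM values lay below all EtOH values (25.0%, against 11.4%). Ccng1 (ENSMUSG00000020326, chr11:40562054-40568813) encodes cyclin G1, which recruits a phosphatase to Mdm2. Its normalized counts were 2697, 1737 and 1732 in EtOH and 5391, 5291 and 5599 in TAM. The highest TAM library was 1.06 times the lowest, and every TAM value was above every EtOH value. The means were 2055 ± 556 (SD, n = 3) and 5427 ± 157 (SD, n = 3).

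The log2 fold change of Ccng1 was 1.43 (interval 0.92 to 1.94), that is, 2.70-fold (1.89 to 3.85). The limma model gave a standard error of 0.22 and an adjusted p of 0.0628. Blocking on the replicate gave 0.21 and an adjusted p of 0.0488. Over 17 alternatives the log2 fold change ranged from 1.33 to 1.64 and the adjusted p from 0.0122 to 0.287, and 3 of them called it. Of all genes tested, 0.438% had a p as small as that of Ccng1 or smaller.

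Zmat3, a zinc finger protein that binds RNA and suppresses growth downstream of p53, had 2476, 1570 and 1389 normalized counts in EtOH and 3459, 2585 and 3612 in TAM. The groups did not overlap, although EtOH replicate 1 came close to TAM replicate 2. Zmat3 had a log2 fold change of 0.86 (interval 0.24 to 1.48, limma adjusted p = 0.246). Tob1, an antiproliferative protein of the BTG family, had 400, 366 and 381 normalized counts in EtOH and 524, 467 and 575 in TAM. The EtOH libraries were tight, and the log2 fold change was 0.44 (interval 0.05 to 0.84, limma adjusted p = 0.317).

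Within the BTG family the directions were mixed. Btg1 (ENSMUSG00000036478, chr10:96079635-96085447), which slows proliferation, had 2440, 7096 and 3338 normalized counts in EtOH and 1274, 1584 and 2282 in TAM. EtOH replicate 2 was the highest library, and TAM replicate 3 came close to EtOH replicate 1. The log2 fold change, the lowest of the list, was −1.22 (interval −2.19 to −0.24, limma adjusted p = 0.278), and −0.74 without replicate 2 of either group. Btg2, a relative of Btg1, had 1019, 849 and 332 normalized counts in EtOH and 1410, 763 and 991 in TAM. Its groups overlapped, and the log2 fold change of 0.63 had an interval of −0.42 to 1.67, and was 0.13 without EtOH replicate 3 and 1.02 without replicate 2 of either group.

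Gadd45a, which binds PCNA and stress kinases and restrains the entry into mitosis, had 1035, 2466 and 1028 normalized counts in EtOH and 938, 539 and 931 in TAM. The groups did not overlap, but the difference was mostly in replicate 2, with −0.14, −2.19 and −0.14 on the log2 scale in pairs 1, 2 and 3. Of the exon bases of Gadd45a, 19.1% are shared with E230016M11Rik on the opposite strand, and the strand setting of the counting is not given in the sources used here.

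The polo-like kinases Plk2 and Plk3, which respond to stress, were highest in TAM replicate 2. Plk3 had 109, 163 and 30.8 normalized counts in EtOH and 99.6, 656 and 101 in TAM. Plk2 had 1843, 2850 and 1182 normalized counts in EtOH and 1914, 4997 and 1195 in TAM. The groups of both kinases overlapped, and the interval of Plk3, from −0.89 to 3.25, was the widest of the list. The log2 fold change of Plk3, 1.18, was 0.29 without TAM replicate 2 and 0.49 without EtOH replicate 3.

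**Figure D2:**
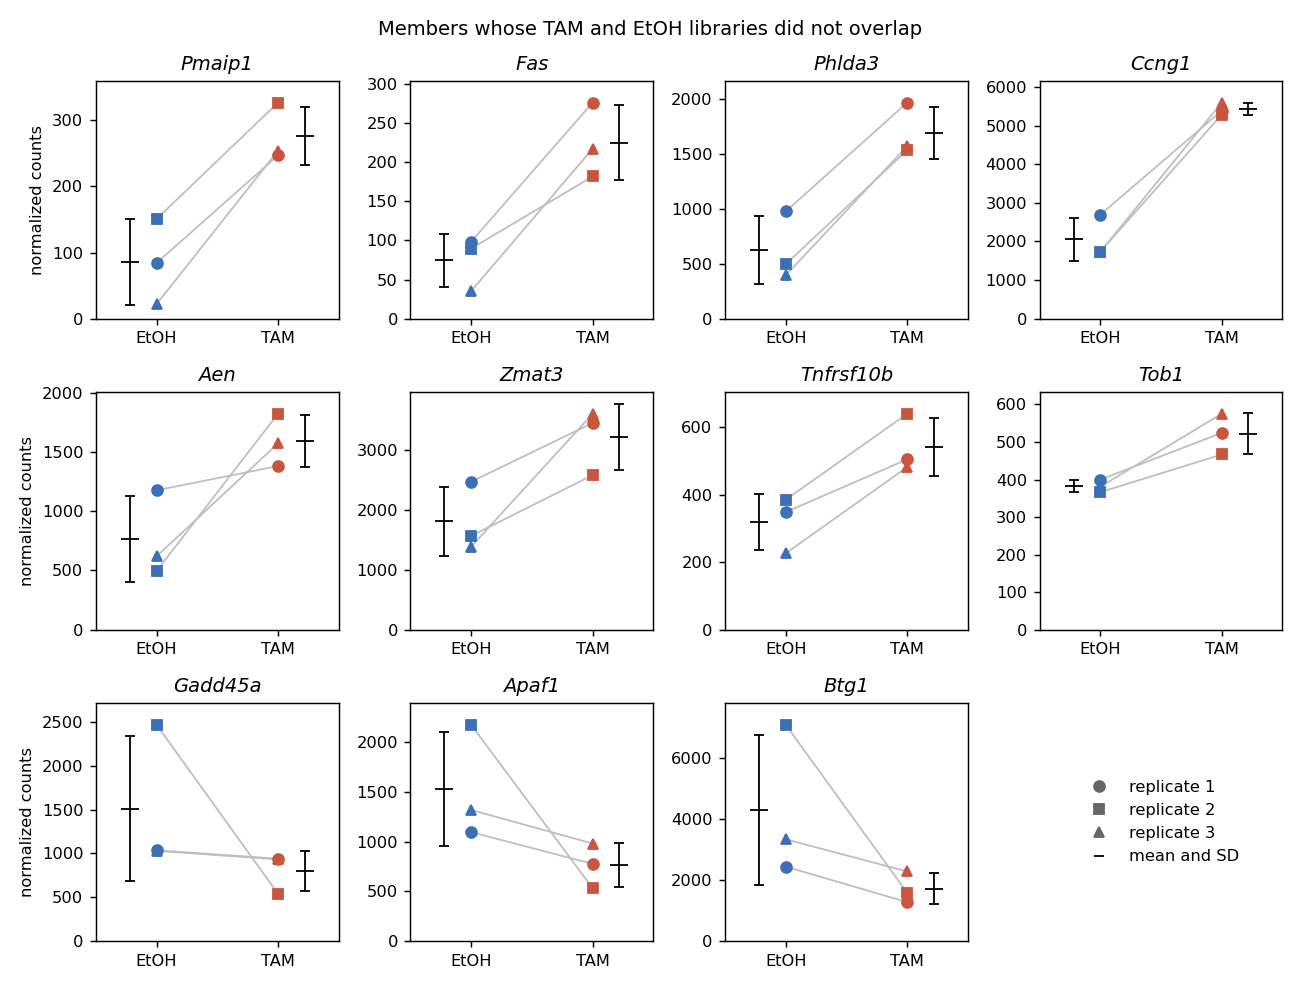
Normalized counts in each library for the 11 members tested whose groups did not overlap, with grey lines joining replicates of the same number and bars for the mean ± SD of 3 libraries. Ccng1 ran from 1732 to 2697 in EtOH and from 5291 to 5599 in TAM, while for Gadd45a, Apaf1 and Btg1 the highest EtOH library was replicate 2.

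Of the 11 targets of cell death, 10 were tested. The TAM values lay above all EtOH values for 5 of them (against 9.19% of all genes tested) and below for 1 (against 11.4%). Phlda3 (ENSMUSG00000041801, chr1:137662696-137665713), which competes with Akt for membrane lipids and so restrains survival signals, had 974.5, 495 and 395 normalized counts in EtOH and 1964, 1532 and 1569 in TAM. Replicate 1 was the highest library in both groups, and the groups were well separated. Phlda3 was 2.91-fold higher, a log2 fold change of 1.54 ± 0.34 (standard error) with an interval of 0.75 to 2.33 and a limma adjusted p of 0.146.

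The death receptors Fas and Tnfrsf10b had higher values in each TAM library than in any EtOH library. Fas (ENSMUSG00000024778, chr19:34365149-34402260), the receptor for Fas ligand, had 98.4, 89.6 and 35.3 normalized counts in EtOH and 276, 182 and 217 in TAM. Its log2 fold change was 1.69 (interval 0.71 to 2.68, limma adjusted p = 0.183), or 3.24-fold. Tnfrsf10b, the mouse receptor for TRAIL, had 349, 385 and 227 normalized counts in EtOH and 505, 640 and 482 in TAM. Its log2 fold change was 0.78 (interval 0.19 to 1.37, limma adjusted p = 0.260). Eda2r, a receptor of the same superfamily that binds ectodysplasin, ran from 539 to 785 in EtOH and from 468 to 1009 in TAM, so its groups overlapped.

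Of the BH3-only genes, Pmaip1 was higher in all TAM libraries and Bbc3 was not. Pmaip1 (ENSMUSG00000024521, chr18:66618258-66625204), which encodes Noxa, an antagonist of Mcl1, had 84.3, 151 and 22.0 normalized counts in EtOH and 247, 327 and 254 in TAM. Its log2 fold change of 2.04 (interval 0.54 to 3.55, limma adjusted p = 0.254) was the largest of the list, and it was 1.27 without EtOH replicate 3. Bbc3, which encodes Puma, had 226, 412 and 236 normalized counts in EtOH and 320, 82.1 and 236 in TAM. Replicate 2 held both the highest and the lowest value of Bbc3, and the log2 fold change went from −0.60 to 0.25 without that replicate. Bax, the pore-forming effector of the mitochondrial pathway, had 1126, 829 and 694 normalized counts in EtOH and 1191, 1261 and 1008 in TAM. Its groups overlapped, with TAM higher in 3 of 3 pairs and a log2 fold change of 0.41 (interval −0.11 to 0.93, limma adjusted p = 0.483), or 0.25 without EtOH replicate 3.

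Aen (ENSMUSG00000030609, chr7:86040740-86056095), a nuclease that aids apoptosis, had 1176, 496 and 620 normalized counts in EtOH and 1380, 1821 and 1571 in TAM. The groups did not overlap, and pair 1 differed least (0.23 on the log2 scale, against 1.88 and 1.34). Its log2 fold change was 1.15 (interval 0.39 to 1.91, limma adjusted p = 0.217). Apaf1 (ENSMUSG00000019979, chr10:90452056-90545515), the scaffold of the apoptosome, had 1096, 2176 and 1319 normalized counts in EtOH and 776, 532 and 981 in TAM. Every TAM value was below every EtOH value, with a log2 fold change of −0.98 (interval −1.75 to −0.22, limma adjusted p = 0.269), and −0.46 without replicate 2 of either group. Ei24, a membrane protein of the endoplasmic reticulum, overlapped between the groups, with 1034 to 1338 normalized counts in EtOH and 1062 to 1384 in TAM.

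Perp, a target of p53 and p63 that serves in desmosomes of epithelia, was listed at 0, 0.92 and 0 normalized counts in EtOH and at 4.47, 64.5 and 11.4 in TAM. It was above 1 c.p.m. in TAM replicate 2 only and was left out of the tests. In that library the summed level of the keratinocyte markers was also at its highest, 232 against 81.6 to 101 in the other libraries. Most of that sum was Ivl, at 153, while Krt14 was at 0 and Krt5 at 7.53 there. Trp63 was at 2.5 in that library, against 7.15 and 6.87 in the other TAM libraries and 24.85 to 25.78 in EtOH, and 9 of the 12 markers were under 1 c.p.m. in all libraries. The part of those markers in the Perp value was not tested.

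**Figure D3:**
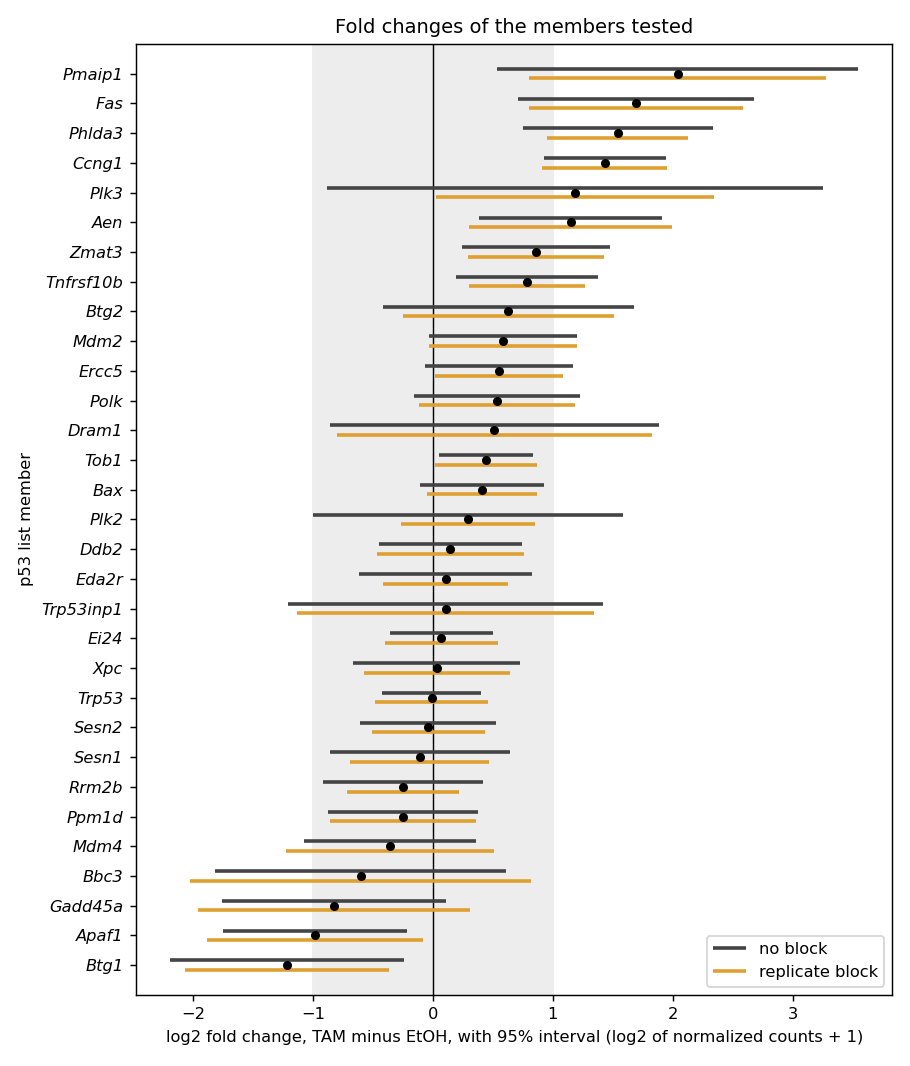
Log2 fold change, TAM against EtOH, of the 31 members tested (points), with its 95% interval without and with the replicate block, and a grey band from −1 to 1. Without the block the interval was above 0 for 8 members and below 0 for Btg1 and Apaf1, and it lay inside the band for 11 members.

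For the 5 targets in DNA repair and nucleotide supply the groups overlapped. Ercc5, the XPG nuclease of nucleotide excision repair, had 589, 482 and 452 normalized counts in EtOH and 959, 515 and 818 in TAM. TAM replicates 1 and 3 were above all EtOH libraries and TAM replicate 2 lay among them, with a log2 fold change of 0.55 (interval −0.07 to 1.17, limma adjusted p = 0.427). Polk, a translesion DNA polymerase, had 380, 567 and 282 normalized counts in EtOH and 720, 522 and 488 in TAM. Only EtOH replicate 2 reached the TAM range, and the log2 fold change was 0.53 (interval −0.16 to 1.22), or 0.29 without EtOH replicate 3 and 0.86 without replicate 2 of either group. The damage sensors Xpc and Ddb2 and the ribonucleotide reductase subunit Rrm2b had log2 fold changes of 0.03, 0.14 and −0.25, with intervals inside −1 to 1. Of the exon bases of Ddb2, 23.8% are shared with Acp2 on the opposite strand.

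The 3 metabolic and autophagy targets also overlapped between the groups. Sesn2, a leucine sensor that restrains mTORC1, had 1392, 792 and 1258 normalized counts in EtOH and 1167, 980 and 1117 in TAM. Its log2 fold change of −0.04 had an interval of −0.61 to 0.53, and that of its relative Sesn1 was −0.11 (interval −0.86 to 0.64). The signs of both changed with the scaling. Dram1, a lysosomal protein in autophagy, had 275, 961 and 166 normalized counts in EtOH and 552, 462 and 501 in TAM. The highest TAM library of Dram1 was 1.19 times the lowest, while in EtOH this ratio was 5.77, and only EtOH replicate 2 was above the TAM values. For Dram1 the log2 fold change of 0.51 was 1.23 without that library and −0.03 without EtOH replicate 3.

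The size of difference that the data leave room for varied among members. For 11 of the 31 (35.5%, against 55.9% of all genes tested) the 95% interval lay between −1 and 1 on the log2 scale. These were Trp53, Ppm1d, Tob1, Bax, Eda2r, Ei24, Xpc, Ddb2, Rrm2b, Sesn1 and Sesn2. A p that misses the threshold does not show that the groups were alike.

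Levels between genes were compared as normalized counts per kb of exon. The highest means in EtOH were those of Btg1 (856.5), Gadd45a (855.7), Plk2 (699), Bax (659) and Ccng1 (585), but the first 3 rested on replicate 2. Without it Bax (679.6) and Ccng1 (630.5) came first, above Gadd45a (584.6), Btg1 (576.7) and Plk2 (539.8). In TAM the highest were Ccng1 (1545), Phlda3 (1083), Plk2 (964) and Bax (862), and without replicate 2 Plk2 was at 554.7, below Trp53inp1 (701.0) and Ei24 (581.1). Trp53 was at 349 in EtOH and 345 in TAM. Fas (41.3 and 125), Plk3 (39.9 and 113), Pmaip1 (32.4 and 104) and Perp (0.2 and 14.1) were the lowest in EtOH. Plk3 was at 39.7 in TAM without replicate 2. Of the members tested, those with the largest fold changes, Pmaip1 and Fas, were thus among the lowest in EtOH.

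**Figure D4:**
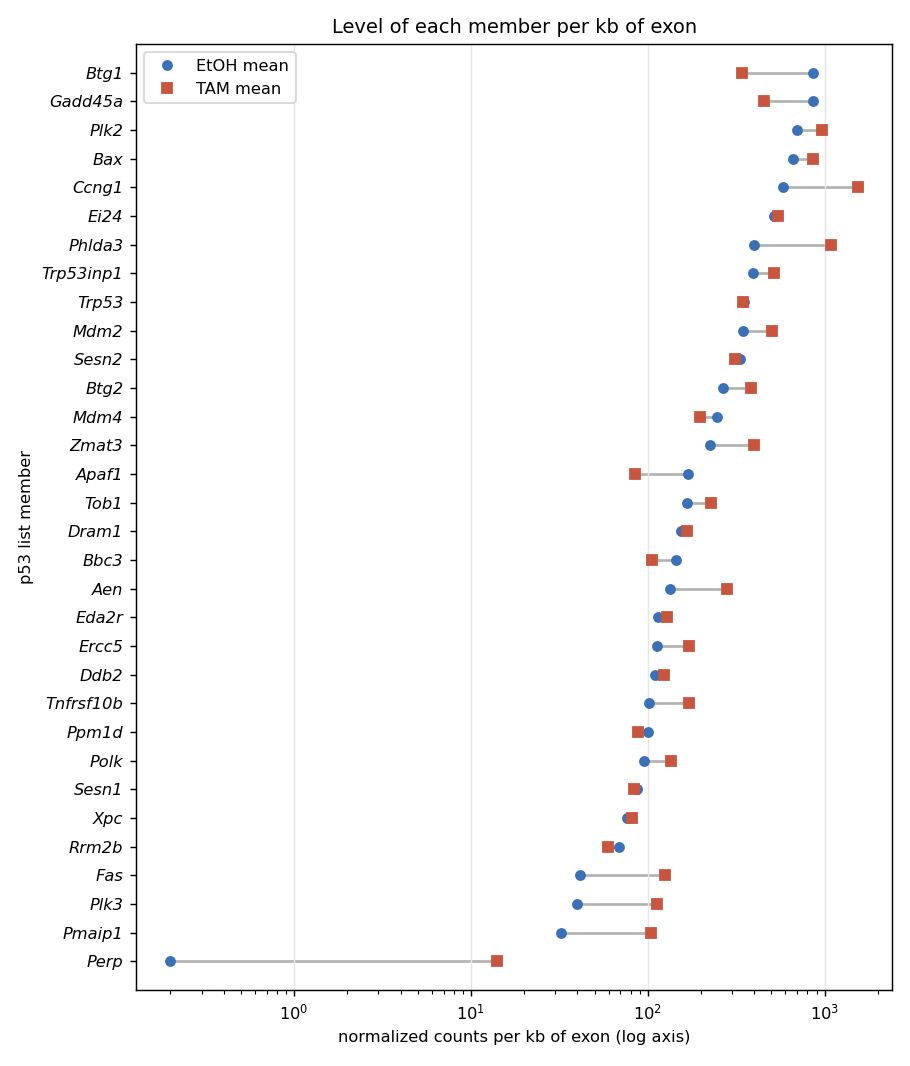
Mean level of each of the 32 members in the table, in normalized counts per kb of exon on a log axis, for EtOH and TAM (3 libraries each), sorted by the EtOH level. Ccng1 went from 585 to 1545 and Phlda3 from 399 to 1083, while Fas and Pmaip1 stayed below most members in both groups.

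Other genes of the pathway were counted from lists written with earlier results of these data known, so these counts are descriptive only. Of 25 DNA damage kinases and other p53 regulators tested, limma called 0 with or without the block. Before adjustment, 1 had p under 0.05 and was higher (against 6.67% of all genes tested) and 2 did so and were lower (against 6.70%), and the median log2 fold change was −0.03. Of 25 cell cycle genes that p53 represses through p21 and the DREAM complex, limma's moderated test called 0. Before adjustment 0 had p under 0.05 in either direction (against 6.67% of all genes tested higher and 6.70% lower), with a median of −0.02. Their intervals were wide, and only 1 of the 25 (4.0%, against 55.9% of all genes tested) lay between −1 and 1. The data thus leave room for larger changes in most of these genes. Of 36 further p53 targets tested, limma called 0 without the block, 1 with it (where 1.00% of all genes tested were higher) and 9 with library weights (where 3.25% were), all higher. Before adjustment, 10 of the 36 had p under 0.05 and were higher (against 6.67% of all genes tested) and 0 were lower (against 6.70%), and their median log2 fold change was 0.19.

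The target called with the block was Trp53i11, a p53-induced membrane protein, with 16.9, 14.3 and 21.1 normalized counts in EtOH and 128, 57.8 and 91.2 in TAM. The groups did not overlap, and its log2 fold change of 2.29 ± 0.39 (standard error) had a limma adjusted p of 0.0915, or 0.0498 when blocked on the replicate. Cdkn1a, which encodes the Cdk inhibitor p21 and belongs to the same list, had 3461, 3655 and 1718 normalized counts in EtOH and 7410, 4300 and 7452 in TAM. Its groups did not overlap either, and its log2 fold change of 1.15 ± 0.36 (standard error) had a limma adjusted p of 0.254.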

How the data were processed

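RNA-seq reads of 6 samples were aligned to mm9 with TopHat, counted over RefSeq genes with HTSeq and normalized with edgeR (TMM) by the authors. They deposited normalized counts, a signal that is not whole reads and whose exact scaling is not given in the sources used here, so no count model was run. Column names were matched to sample titles.

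Genes at 1 c.p.m. or more (16.2 normalized counts) in at least 3 libraries, 11877 of 22162, were tested with limma 3.58.1 (R 4.3.3) on log2(value + 1) with an intensity trend, which understates changes of low genes. The threshold for a call was 0.05 after Benjamini-Hochberg adjustment, and errors and intervals (95%) come from this model. At 3 against 3 an exact permutation test of a single gene cannot go below p = 0.1 and was not used. The method was tested on simulated data. Libraries that share a replicate number deviated together from their groups (r = 0.24, 0.29 and 0.42, against −0.31 to 0.04 for different numbers). Deviations within a group cancel out, so a positive r for equal numbers lowers r for different numbers, and the contrast is partly built in. The labels do not say whether equal numbers mark a shared culture. The replicate number was therefore used as a block in an alternative only. Other alternatives varied the scaling, pseudocount, filter, trend, library weights and libraries included.

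Members and lists were chosen with earlier results of these data known. Library values were given for Trp53, Mdm2, Mdm4, Ppm1d, members called or not overlapping, the 3 largest differences each way, members under the filter and the highest level of each role; further members were given after their values were seen. Positions are those of the mm9 annotation, which gave 22148 of the table's gene IDs, counted from 1. The deposited table gave the same end and a start 1 lower for 15782 of these, and the same start and end for 6. The rest differed, as for Dram1, whose 5′ end was 87841825 in the annotation and 87819741 in the table. The 5′ ends searched and the exon lengths may thus differ from the gene models that were counted.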

Additional observations from a re-analysis of the deposited data

How the results depend on the processing

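The count of all genes called moved most: 20 higher and 9 lower became 119 and 73 with the replicate block, 386 and 356 with library weights, and 472 and 383 with the block and without replicate 2, and 12 and 5 without the filter, with 4 lower at a minimum of 10 in every library. When libraries were left out, 0 to 6 genes were called higher and 0 to 9 lower. Among the p53 members, 1 was called higher with the replicate block, 6 with library weights and 8 with the block and without replicate 2, and the block changed no other call among them. Among further p53 targets these counts were 1, 9 and 12, where 1.00%, 3.25% and 4.10% of all genes tested were called higher. Among the other regulators 1 was called lower with library weights (against 3.00%). In that list 1 was called higher with the block and without replicate 2 (against 4.10%). Both lists were written with earlier results of these data known. Groups did not overlap, with TAM below, for 0 members with library sums set equal (6.36% of all genes tested) and for 5 without replicate 2 (31.9%), and with TAM above for 15 (22.1%), the same with the block. With libraries left out, 6 to 15 intervals lay between −1 and 1, 8 to 15 members had TAM above (11.3% to 22.1% of all genes tested) and 3 to 5 below (13.4% to 31.9%). Mdm2 was 0.88 with library weights and passed the threshold. The log2 fold change of Trp53 was 0.10 with library sums set equal, 0.01 with median-ratio scaling and −0.19 to 0.08 with libraries left out. Signs also changed for members whose intervals held 0. With library sums set equal, Sesn1 was 0.00 and Sesn2 0.07. With library weights, Plk2 was −0.13, Rrm2b 0.02 and Sesn1 0.08. With the block and without replicate 2, Bbc3 was 0.25, Mdm4 0.04, Ppm1d 0.02 and Sesn1 0.12. With libraries left out, the ranges were −1.0 to 0.25 for Bbc3, −0.05 to 0.36 for Ddb2, −0.03 to 1.29 for Dram1, −0.14 to 0.41 for Eda2r, −0.02 to 0.17 for Ei24, −0.63 to 0.04 for Mdm4, −0.28 to 0.75 for Plk2, −0.40 to 0.03 for Ppm1d, −0.28 to 0.23 for Sesn1, −0.29 to 0.12 for Sesn2, −0.29 to 0.86 for Trp53inp1 and −0.16 to 0.35 for Xpc. The cause of these changes was not tested. Library weights and leaving out replicate 2 of both groups were chosen after seeing the data. Where leaving out a library left a group with fewer samples, the spread was pooled over both groups. With the block and without replicate 2, the error rested largely on the spread pooled over genes. Sequencing depth behind the values is unknown.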
